A study of Mus musculus with 11 samples.

Results

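The alpha and beta tubulin isotypes described here are 10 genes, 5 alpha (Tuba1a, Tuba1b, Tuba1c, Tuba4a and Tuba8) and 5 beta (Tubb2a, Tubb2b, Tubb3, Tubb4a and Tubb5), of the 54752 genes in each count table. They were chosen by name, as the tubulin genes set down for description, with earlier results of these counts in view. All 10 were found by their Ensembl identifiers, and all 10 passed the filter on low counts, as did 15907 genes in all. The 11 RNA-seq libraries held neurons of the thalamic nuclei that relay vision (dorsolateral geniculate nucleus, dLG, 4 libraries), touch from the face (ventral posteromedial nucleus, VPM, 4 libraries) and hearing (ventral medial geniculate nucleus, MGv, 3 libraries), and the comparison asks how neurons of these nuclei differ at birth. Every library had the same background: Gbx2CreER-IRES-EGFP/+::R26lsl-tdTomato/+ mice of the ICR/CD-1 strain at postnatal day 0, in which tamoxifen switches on a Cre recombinase made where Gbx2 is active, so that cells with a Gbx2 history carry red tdTomato. Each library came from 4 pooled brains, from tissue that was dissected, digested with papain and sorted for red fluorescence, so a value is a mean over animals and over all cells of the sort.

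Microtubules are hollow polymers of alpha and beta tubulin dimers. They carry axonal transport and hold the shape of axons and dendrites, and a newborn neuron that is still growing its axon makes large amounts of both subunits. Vertebrates have several genes for each subunit. Their products are nearly identical in the folded body and differ mainly in the short acidic tail at the carboxyl end, where enzymes add or remove tyrosine and glutamate and where motor proteins and other partners bind. TUBA1A, TUBB2B and TUBB3 are known for human malformations of cortical development, and TUBB3 is widely used as a marker of neurons.

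The tail is where the alpha members can be told apart most directly, so the last 60 coding bases of Tuba1c, Tuba8 and Tuba4a are shown here, 5′ to 3′ on the coding strand and ending with the stop codon. Capitals mark the final sense codon, which in most alpha tubulins encodes the tyrosine that is removed and put back on assembled microtubules.
Tuba1c (chr15:99037950-99038009, plus strand): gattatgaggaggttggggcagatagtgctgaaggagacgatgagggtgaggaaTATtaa
Tuba8 (chr6:121226020-121226079, plus strand): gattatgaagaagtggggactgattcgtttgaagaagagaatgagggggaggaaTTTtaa
Tuba4a (chr1:75215622-75215681, minus strand): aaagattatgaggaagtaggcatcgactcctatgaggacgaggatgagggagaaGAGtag
The sequences and positions are from the GENCODE M21 annotation of mouse build GRCm38. Tuba1c ended in TAT, a tyrosine codon, whereas Tuba8 ended in TTT, a phenylalanine codon, and Tuba4a in GAG, a glutamate codon. Over the whole coding sequence Tuba1a shared 98.3% of aligned bases with Tuba1b, 97.1% with Tuba1c, 84.7% with Tuba4a and 78.8% with Tuba8, so of the alpha members Tuba8 was the most distant from Tuba1a.

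The corresponding ends of the beta members are shown with capitals at the bases that differ from Tubb5 in a global alignment of the coding sequences, bases with no partner in Tubb5 included. Tubb5 itself, the reference, has none.
Tubb5 (chr17:35834982-35835041, minus strand): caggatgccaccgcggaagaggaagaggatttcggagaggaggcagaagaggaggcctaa
Tubb4a (chr17:57080690-57080749, minus strand): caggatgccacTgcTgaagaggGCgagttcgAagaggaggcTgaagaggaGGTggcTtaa
Tubb2a (chr13:34074468-34074527, minus strand): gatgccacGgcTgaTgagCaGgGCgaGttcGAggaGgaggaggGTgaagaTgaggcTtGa
Tubb2b (chr13:34127471-34127530, minus strand): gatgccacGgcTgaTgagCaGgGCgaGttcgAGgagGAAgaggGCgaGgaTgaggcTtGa
Tubb3 (chr8:123421623-123421682, plus strand): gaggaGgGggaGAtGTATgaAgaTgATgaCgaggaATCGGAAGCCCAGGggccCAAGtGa
Of these 60 bases, 10 differed from Tubb5 in Tubb4a, 16 in Tubb2a, 19 in Tubb2b and 32 in Tubb3. Tubb2a and Tubb2b, neighbours on chromosome 13, shared 96.5% of aligned coding bases, and every other beta pair shared between 81.2% and 84.6%.

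This likeness bears on the counts, because the reads were 50 bases long. Of the 50-base windows of annotated Tuba1a transcripts, 24.5% were found in no other annotated gene, and the share was 24.9% for Tuba1b, 47.3% for Tuba1c, 50.4% for Tubb2a and 63.1% for Tubb2b. Within the coding part it fell to 6.12% for Tuba1a and 4.36% for Tuba1b, so reads that can be assigned to these genes come mostly from outside the coding sequence. Tubb3 (100%), Tubb5 (99.9%) and Tubb4a (99.8%) were almost wholly unique, and Tuba8 was unique in 85.3%. How reads with several alignments were counted is not given in the sources used here, so the split among Tuba1a, Tuba1b and Tuba1c, and between Tubb2a and Tubb2b, is uncertain. Tuba4a shares 37.3% of its exonic bases with Stk16 on the other strand, and Tuba8 shares 16.3% with the antisense gene Gm15856. The library kit does not mark strand, so reads in these overlaps cannot be told apart. Gm15856 was listed with 32 counts over all 11 libraries. Gm49450, a read-through gene that shares 26.2% of the exonic bases of Tuba1a and 22.7% of those of Tuba1b, had 0 counts in every library. How reads in overlapping genes were counted is not given either. The low counts of Gm15856 and Gm49450 therefore do not show how many reads fell in the overlaps.

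**Figure D1:**
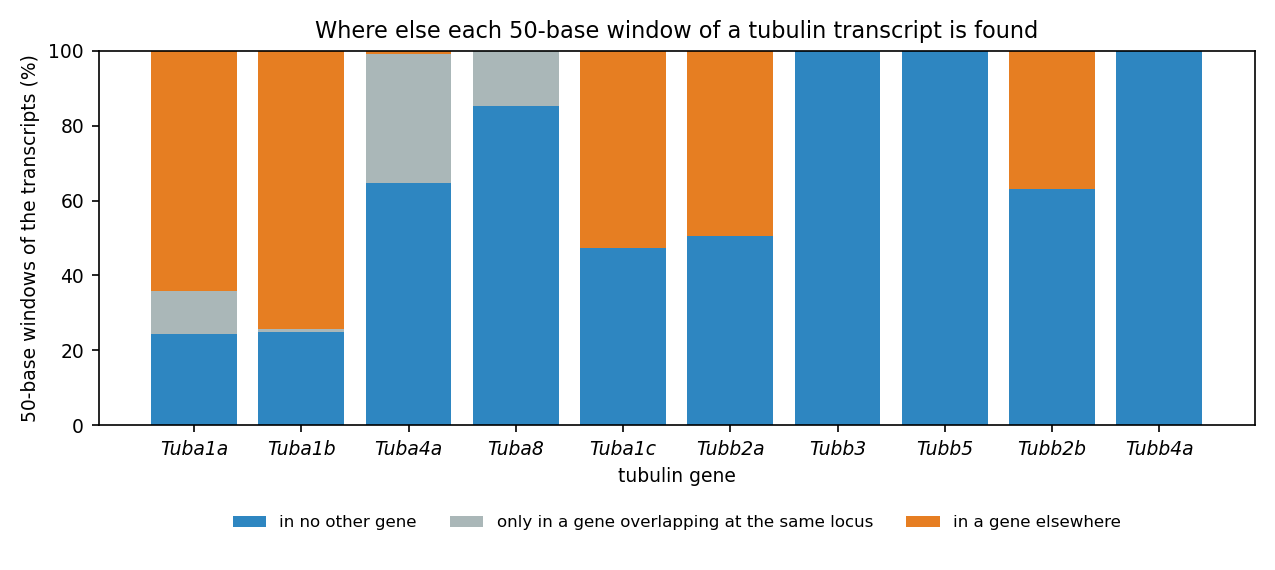
Stacked bars give, for each tubulin gene (x axis), the percentage of the 50-base windows of its annotated transcripts (y axis) that are found in no other gene, only in a gene overlapping at the same locus, or in a gene elsewhere. Tubb3, Tubb5 and Tubb4a are nearly all blue, while Tuba1a and Tuba1b have 24.5% and 24.9% of their windows to themselves.

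Total counts ranged from 10175653 to 23559130 per library, and all 3 MGv libraries were shallower (at most 13164909) than the others (at least 15867673). Counts are given here as CPM (counts scaled to a common library total) with TMM scaling (trimmed mean of M values), and 3 counts, taken as the floor of detection, came to between 0.129 and 0.291 CPM. The 3 libraries dLG replicate 2, VPM replicate 3 and MGv replicate 1 stood apart by the chaperone gene Hspa8 (3.05 to 5.56 CPM, against 159 to 581 CPM in the other 8). Neuronal markers were high throughout, with summed levels of 5 genes between 6110 and 8266 CPM. Gbx2, the gene whose promoter drives the Cre, was at 14.2 to 51.6 CPM in dLG, 27.3 to 45.7 CPM in VPM and 272 to 333 CPM in MGv. The 7 thalamic neuron markers, Gbx2 among them, summed to 3012 to 3330 CPM in dLG, 2053 to 2711 CPM in VPM and 3159 to 3511 CPM in MGv. Tcf7l2, Foxp2 and Lhx2 were also highest in MGv. Rora and Lhx9 were highest in dLG, and Slc17a6 was lower in MGv than in dLG without overlap. The 5 astrocyte markers summed to 2.07 to 19.5 CPM in dLG, 6.89 to 15.3 CPM in VPM and 47.6 to 96.8 CPM in MGv, in MGv most of it Slc1a3 (45.5 to 90.3 CPM), while Gfap was at or under 3 counts in every library. The 5 oligodendrocyte lineage markers summed to 7.30 to 21.6 CPM, 26.1 to 35.0 CPM and 65.3 to 74.2 CPM in the same order, most of it Mbp, with Sox10 at or under 0.0476 CPM. Markers of dividing cells and radial glia (6 genes) summed to 182 to 239 CPM in dLG, 120 to 141 CPM in VPM and 120 to 141 CPM in MGv, with Mki67 at no more than 0.902 CPM. Among these, Sox2 was highest in dLG (143 to 179 CPM, against 68.4 to 76.0 CPM in VPM and 77.2 to 101 CPM in MGv). Nes went the other way, at 2.67 to 4.38 CPM in dLG and 8.51 to 10.1 CPM in MGv, and Vim overlapped among the nuclei. Red blood cell markers (3 genes) reached 467 CPM in 1 dLG library and at most 11.1 CPM in VPM and 0.351 CPM in MGv. The part of these differences in the tubulin values was not tested.

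The neurons of all 3 nuclei put 2.71% to 3.67% of all their counted reads into the 10 genes, and the order of levels was close to the same in each. Levels of different genes are compared per length, as CPM per kb of exon, and their order is a description. Tuba1a stood first at 9483 ± 1431 CPM per kb in the 4 dLG libraries (mean ± SD), 10520.5 ± 3064 in the 4 VPM libraries and 8531 ± 1321 in the 3 MGv libraries. Tubb2a came next in each nucleus, at 2695 ± 356, 2924 ± 193 and 3260.4 ± 524 CPM per kb in dLG, VPM and MGv. Every library had more Tuba1a than any library of the same nucleus had Tubb2a, and the means differed by 3.52-fold, 3.60-fold and 2.62-fold.

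Tubb3 and Tubb5 followed and could not be ordered, since their libraries overlapped in every nucleus and their means differed by 1.07-fold or less. They were at 1371 ± 202 and 1282 ± 228 CPM per kb in dLG, and the pair changed places in VPM and MGv. Tubb2b, Tuba1b and Tubb4a then came in this order without overlap in each nucleus, at 414 ± 60.1, 124 ± 27.1 and 29.4 ± 3.23 CPM per kb in dLG. The lower ranks depended on the nucleus. In dLG, Tuba4a (13.4 ± 5.85) and Tuba8 (9.1 ± 0.923) overlapped. In MGv, Tuba4a (9.03 ± 1.45) was above Tuba8 (6.51 ± 1.03) in all libraries. In VPM the order was turned round, with Tuba8 (29.7 ± 6.1) above Tuba4a (13 ± 3.96) in all libraries and overlapping Tubb4a (41.7 ± 4.31). Tuba1c was last everywhere, at 0.729 CPM per kb or less.

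**Figure D2:**
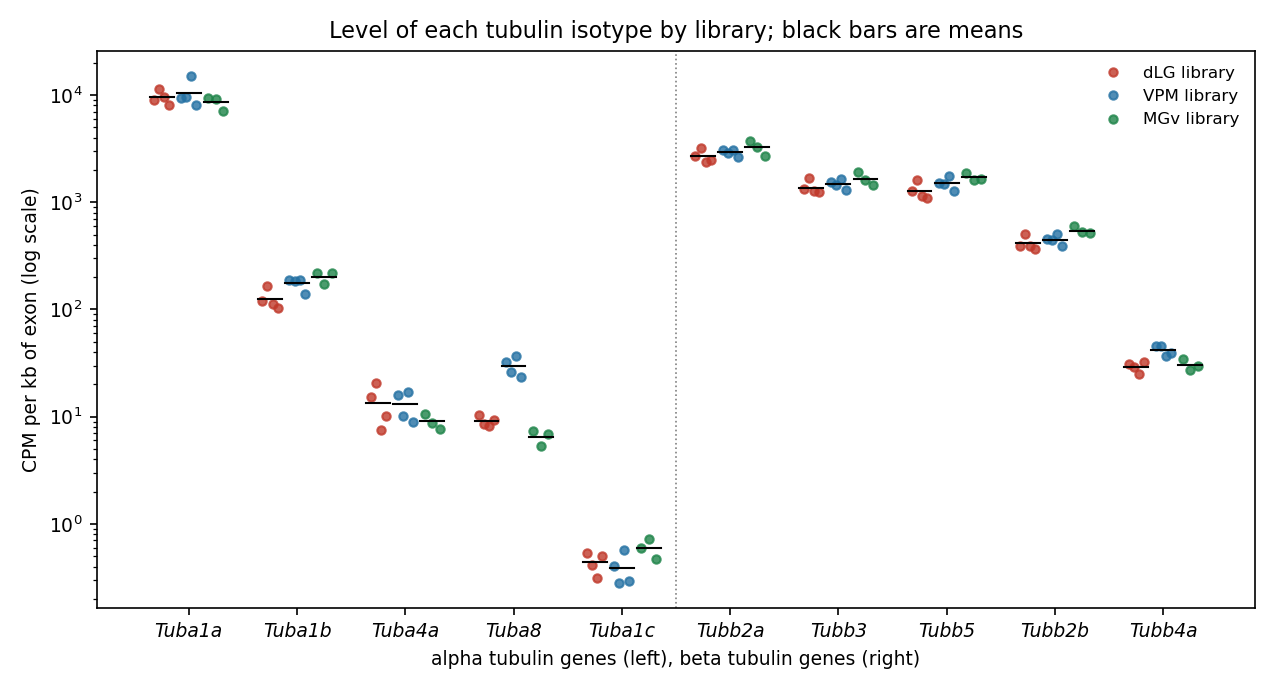
Level of each tubulin gene (x axis) in CPM per kb of exon (y axis, log scale), with 1 point per library, coloured by nucleus, and black bars at the means. Every Tuba1c point lies at or under 0.729 and every Tuba1a point at or above 7021 CPM per kb, and Tuba8 is the gene whose VPM points lie well clear of the others.

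Between the nuclei, Tuba8 differed most, and Tuba1b and Tubb4a also passed the test of any difference. The tests below are edgeR's quasi-likelihood F test over all 15907 genes with Benjamini-Hochberg adjustment, a gene was called at an adjusted p under 0.1, and calls among these 10 genes are a description because they were chosen with results known. In dLG against VPM, 3 of the 10 were called, all lower in dLG (Tuba1b, Tuba8 and Tubb4a), where 10.7% of all genes tested were called in either direction and 5.74% were lower in dLG. In dLG against MGv, 3 were called, again all lower in dLG (Tuba1b, Tubb2b and Tubb5), against 16.1% of all genes in either direction and 7.49% lower in dLG. In VPM against MGv, 2 were called, both higher in VPM (Tuba8 and Tubb4a), against 19.0% of all genes in either direction and 10.4% higher in VPM. The test of any difference among the nuclei called Tuba1b, Tuba8 and Tubb4a, 3 of 10 where 24.2% of all genes were called. The count in VPM against MGv and that in the test of any difference are near the background, and the counts for dLG are above it in this fit. Each of the 2 counts for dLG fell to 1 under some alternatives, among them leaving out 1 library. Whether 10 genes can set the counts apart from the background was not tested. The median log2 fold change of the 10 was -0.13, -0.27 and -0.16 in the same order of comparisons, beside 0.00, 0.02 and 0.02 over all genes tested. The comparisons share libraries, so their values are not independent of each other.

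**Figure D3:**
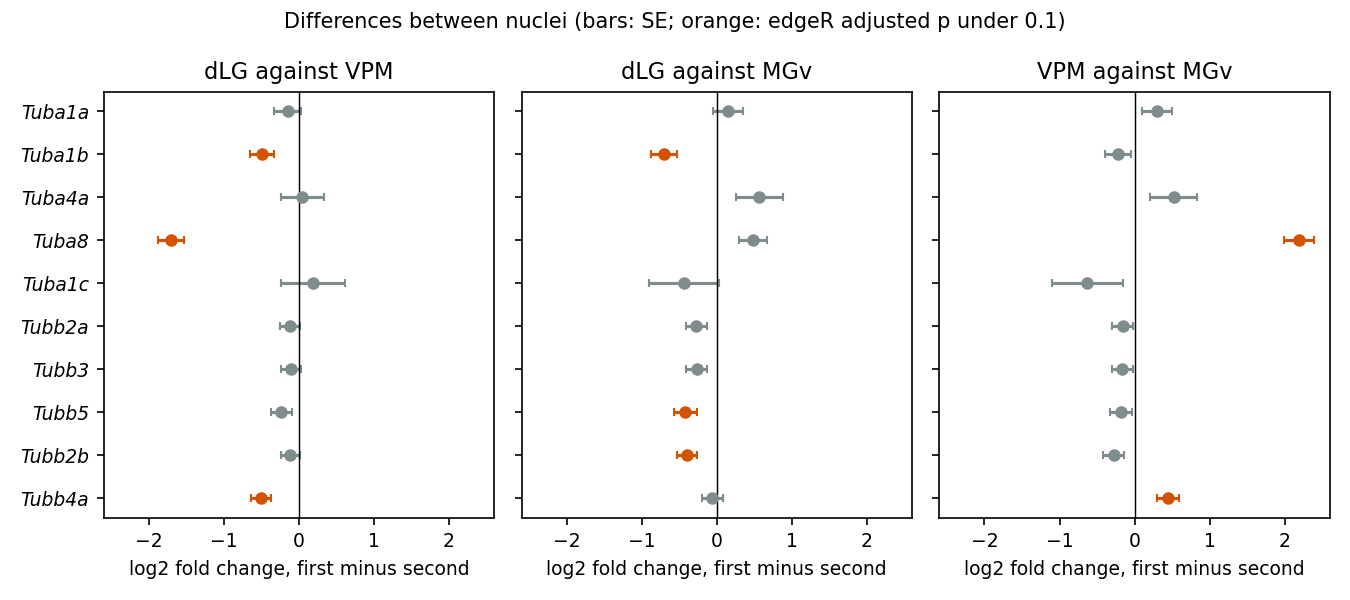
Log2 fold change between nuclei (x axis, first named minus second) for each tubulin gene (y axis), with bars of 1 SE and orange for edgeR adjusted p under 0.1. The Tuba8 differences that involve VPM, of -1.71 and 2.19, are the only ones beyond 1 on this scale.

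Tuba8, an alpha isotype with a phenylalanine codon in place of the final tyrosine codon, had the strongest difference. It was at 72.6, 59.1, 83.9 and 53.2 CPM in VPM replicates 1 to 4, 23.3, 19.5, 18.5 and 21.1 CPM in dLG replicates 1 to 4 and 16.5, 12.1 and 15.6 CPM in MGv replicates 1 to 3. The lowest VPM library (53.2 CPM) was far above the highest dLG library (23.3 CPM), and no nuclei overlapped. VPM exceeded dLG by 3.26-fold (log2 fold change of dLG against VPM -1.71 ± 0.17, SE, edgeR adjusted p = 3.67e-05) and MGv by 4.56-fold (2.19 ± 0.20, edgeR adjusted p = 1.04e-05). dLG was higher than MGv in every library, by 0.48 ± 0.19 on the log2 scale, and this difference was not called (edgeR adjusted p = 0.124). That call turned without VPM replicate 3 (edgeR adjusted p = 0.0646) without the 3 libraries with low Hspa8 (0.0705), with these as a covariate (0.0684) and with libraries scaled by total counts (0.0879). Both calls that involve VPM were kept under all 22 alternatives, with log2 fold changes between -1.81 and -1.55 against dLG and between 2.06 and 2.29 against MGv. In bulk samples such as these, fewer cells with the transcript and less RNA per cell cannot be told apart.

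Tuba1a encodes the alpha tubulin that dominates in developing neurons, and it was not called in any comparison. Its levels were 16313, 20577, 17096 and 14406 CPM in dLG replicates 1 to 4, 16885, 17203, 27085 and 14700.4 CPM in VPM replicates 1 to 4 and 17091, 16391 and 12659.5 CPM in MGv replicates 1 to 3. The nuclei overlapped, and the highest library of each was the one with low Hspa8, among them VPM replicate 3 at 27085 CPM. The log2 fold changes were -0.15 ± 0.18 for dLG against VPM, 0.15 ± 0.20 for dLG against MGv and 0.30 ± 0.20 for VPM against MGv (SE, edgeR adjusted p = 0.729, 0.708 and 0.358). Without VPM replicate 3 the first of these changed sign, to 0.08.

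Tuba1b, a ubiquitous alpha tubulin whose coding sequence is nearly that of Tuba1a, was lowest in dLG. It was at 222, 307, 211 and 193 CPM in dLG replicates 1 to 4, 349.9, 348, 353 and 259 CPM in VPM replicates 1 to 4 and 412, 321 and 407 CPM in MGv replicates 1 to 3. Every dLG library was below every MGv library, while dLG replicate 2, with low Hspa8, overlapped VPM. dLG fell below MGv with a log2 fold change of -0.70 ± 0.17 (1.63-fold, SE, edgeR adjusted p = 0.0161), a call kept under all 22 alternatives. Against VPM the log2 fold change was -0.49 ± 0.16 (1.4-fold, edgeR adjusted p = 0.0927). This second call was lost without any 1 of 8 libraries, namely dLG replicates 1, 3 and 4, VPM replicates 1, 2 and 3, and MGv replicates 1 and 3 (edgeR adjusted p between 0.101 and 0.236), and also with total counts (0.166) and with only the nuclei compared in the fit (0.106), and it held without the 3 libraries with low Hspa8. VPM and MGv differed by -0.22 ± 0.17 and were not called (edgeR adjusted p = 0.466).

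Tuba4a, an alpha tubulin made with no tyrosine codon at its end, varied widely among the libraries of dLG and of VPM. It was at 56.1, 77, 27.9 and 37.6 CPM in dLG replicates 1 to 4, 58.9, 37.8, 62.4 and 33.3 CPM in VPM replicates 1 to 4 and 39.2, 32.4 and 28.7 CPM in MGv replicates 1 to 3. The dLG libraries alone ran from 27.9 to 77.0 CPM, and all nuclei overlapped. No comparison was called, with log2 fold changes of 0.05 ± 0.28, 0.57 ± 0.31 and 0.52 ± 0.31 for dLG against VPM, for dLG against MGv and for VPM against MGv (SE, edgeR adjusted p = 0.955, 0.296 and 0.307). With no count filter the second and the third of these became calls (dLG against MGv 0.0443 and VPM against MGv 0.0738), which the filtered fit did not make. Stk16, which shares its exonic bases on the other strand, was at 60.3 to 126 CPM and was lowest in the libraries with low Hspa8 (60.3 to 76.0 CPM, against 89.1 to 126 CPM in the others), where Tuba4a was highest in each nucleus.

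Tuba1c, the third gene of the Tuba1 cluster on chromosome 15, was close to the floor. Its counts lay between 11 and 24 per library, or 0.649 to 1.67 CPM, where Tuba1a had 130247 or more. The nuclei overlapped, no comparison was called (edgeR adjusted p between 0.424 and 0.875), and at this depth the standard errors of 0.43 to 0.47 on the log2 scale could not show a difference of the size seen for Tuba1b.

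Among the beta members, Tubb4a, which is known from mature neurons and oligodendrocytes, was highest in VPM. It was at 101, 101, 81.6 and 88.1 CPM in VPM replicates 1 to 4, 68.6, 64.6, 55.8 and 72.6 CPM in dLG replicates 1 to 4 and 77.2, 60.7 and 66.4 CPM in MGv replicates 1 to 3. VPM lay above both other nuclei without overlap, and dLG and MGv overlapped. The log2 fold change was -0.51 ± 0.13 for dLG against VPM (1.42-fold, SE, edgeR adjusted p = 0.0321) and 0.45 ± 0.14 for VPM against MGv (1.36-fold, edgeR adjusted p = 0.0574). Between dLG and MGv it was -0.06 ± 0.14 (edgeR adjusted p = 0.857). The call against dLG was lost without VPM replicate 2 (edgeR adjusted p = 0.105) and with libraries scaled by total counts (0.132). The call against MGv was lost without any 1 of VPM replicates 1 and 2 and MGv replicates 2 and 3 (edgeR adjusted p between 0.108 and 0.179), with total counts (0.150) and with no count filter (0.101). The oligodendrocyte lineage markers summed to 7.30 to 21.6 CPM in dLG, 26.1 to 35.0 CPM in VPM and 65.3 to 74.2 CPM in MGv. Most of each sum was Mbp (62.4 to 71.5 CPM in MGv), while Olig1 overlapped among the nuclei (1.46 to 2.90 CPM in MGv, 1.05 to 3.85 CPM in VPM). The part of these markers in the Tubb4a values was not tested.

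Tubb2b, the beta isotype known for roles in neuronal migration, was highest in MGv. It was at 898, 1154, 906 and 845 CPM in dLG replicates 1 to 4, 1048, 1009.7, 1158 and 900 CPM in VPM replicates 1 to 4 and 1363, 1201 and 1184 CPM in MGv replicates 1 to 3. All MGv libraries were above all others, by as little as 1184 against 1158 CPM, and dLG and VPM overlapped. dLG fell below MGv with a log2 fold change of -0.39 ± 0.14 (1.31-fold, SE, edgeR adjusted p = 0.0833), while VPM against MGv, at -0.28 ± 0.14, was not called (edgeR adjusted p = 0.207), although it was without VPM replicate 3 (0.0928), with total counts (0.0740) and by limma voom (0.0464). Tubb5, the broadly expressed beta tubulin of the developing brain, was at 4219, 5346, 3827 and 3664 CPM in dLG, 5007, 4919.7, 5879.9 and 4263 CPM in VPM and 6262, 5321 and 5479.9 CPM in MGv, replicates in order. Of the dLG libraries only replicate 2 (5346 CPM) reached into the MGv range of Tubb5, and VPM overlapped both. The log2 fold change of Tubb5 in dLG against MGv was -0.42 ± 0.15 (1.33-fold, SE, edgeR adjusted p = 0.0995), at the edge of the threshold. Neither call was firm: both were lost without any 1 of the same 8 libraries (dLG replicates 1, 3 and 4, VPM replicates 1 and 2, and all 3 MGv replicates), with adjusted p between 0.116 and 0.249 for Tubb2b and between 0.128 and 0.278 for Tubb5. With no count filter both were lost too (0.206 and 0.165), and that of Tubb5 was lost with DESeq2 size factors (0.103) and with at least 10 counts asked of every library (0.118). Both held without the 3 libraries with low Hspa8. limma voom also called Tubb5 in dLG against VPM (adjusted p = 0.0965). Of the astrocyte markers, summed above, Slc1a3 was higher in MGv as well, while Aldh1l1, Aqp4 and Gja1 in MGv overlapped dLG. The part of these markers in the Tubb2b and Tubb5 values was not tested.

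Tubb2a and Tubb3, the other abundant beta isotypes, were not called anywhere. Tubb2a was at 4349, 5141, 3841 and 4027 CPM in dLG, 4906, 4683, 4961 and 4279 CPM in VPM and 6059.5, 5313 and 4376 CPM in MGv, replicates in order. Tubb3, the isotype used as a neuronal marker, was at 2461, 3119, 2353 and 2315 CPM in dLG, 2857, 2693, 3049.9 and 2413 CPM in VPM and 3540.3, 2989 and 2717 CPM in MGv. For both genes the nuclei overlapped, and the highest library of each nucleus was the one with low Hspa8. Tubb3 differed by log2 fold changes of -0.10 ± 0.13, -0.27 ± 0.14 and -0.16 ± 0.14 for dLG against VPM, for dLG against MGv and for VPM against MGv (SE, edgeR adjusted p = 0.743, 0.283 and 0.51). Those of Tubb2a were -0.12 ± 0.13, -0.27 ± 0.14 and -0.16 ± 0.14 (edgeR adjusted p = 0.694, 0.254 and 0.516). limma voom with sample quality weights called both in dLG against MGv (adjusted p = 0.0655 for Tubb3 and 0.0568 for Tubb2a).

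As shares of the 5 alpha members, on the CPM per kb scale, Tuba1a made up nearly all of the pool. It took 98.5% ± 0.14 of the pool in dLG (SD over 4 libraries), 97.9% ± 0.371 in VPM (4 libraries) and 97.4% ± 0.603 in MGv (3 libraries). Tuba1b took 1.29% ± 0.0999, 1.68% ± 0.326 and 2.37% ± 0.58, and Tuba8 took 0.0965% ± 0.0201, 0.282% ± 0.0386 and 0.0759% ± 0.0185 in the same order. Even in VPM, Tuba8 was at most 0.334% of the alpha pool. The beta pool was spread more evenly. Tubb2a took 46.6% ± 1.07, 45.8% ± 1.33 and 45.2% ± 2.19, Tubb3 took 23.7% ± 0.453, 23% ± 0.24 and 22.9% ± 0.257, and Tubb5 took 22.1% ± 0.801, 23.5% ± 1.15 and 23.9% ± 1.75. Tubb2b took 7.16% ± 0.304, 7.01% ± 0.122 and 7.6% ± 0.445, and Tubb4a at most 0.717% in any library. Dividing by the windows found in no other gene in place of exon length raised the share of Tubb2a to between 61% and 62.4% of the beta pool and left Tuba1a between 97.7% and 98.7% of the alpha pool. The order of the 10 mean levels was the same with either of these lengths in all nuclei. With the longest annotated transcript as the length, Tubb5 stood above Tubb3 in dLG, and the order was otherwise unchanged.

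The balance of the subunits, as summed alpha over summed beta CPM per kb, was 1.61, 1.66, 1.84 and 1.55 in dLG replicates 1 to 4, 1.46, 1.55, 2.17 and 1.47 in VPM replicates 1 to 4 and 1.19, 1.32 and 1.14 in MGv replicates 1 to 3. MGv lay below both other nuclei without overlap, and dLG and VPM overlapped. The means were 1.66 ± 0.127 for dLG (SD over 4 libraries), 1.66 ± 0.343 for VPM (4 libraries) and 1.21 ± 0.091 for MGv (3 libraries). No test was made of this ratio, which was chosen after its parts had been seen. The ratio depends on the length used: with unique windows it was 4.57, 4.59 and 3.36, and MGv again lay below the others without overlap. Without the 3 libraries with low Hspa8 it was 1.67, 1.49 and 1.23, also without overlap between MGv and the others.

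**Figure D4:**
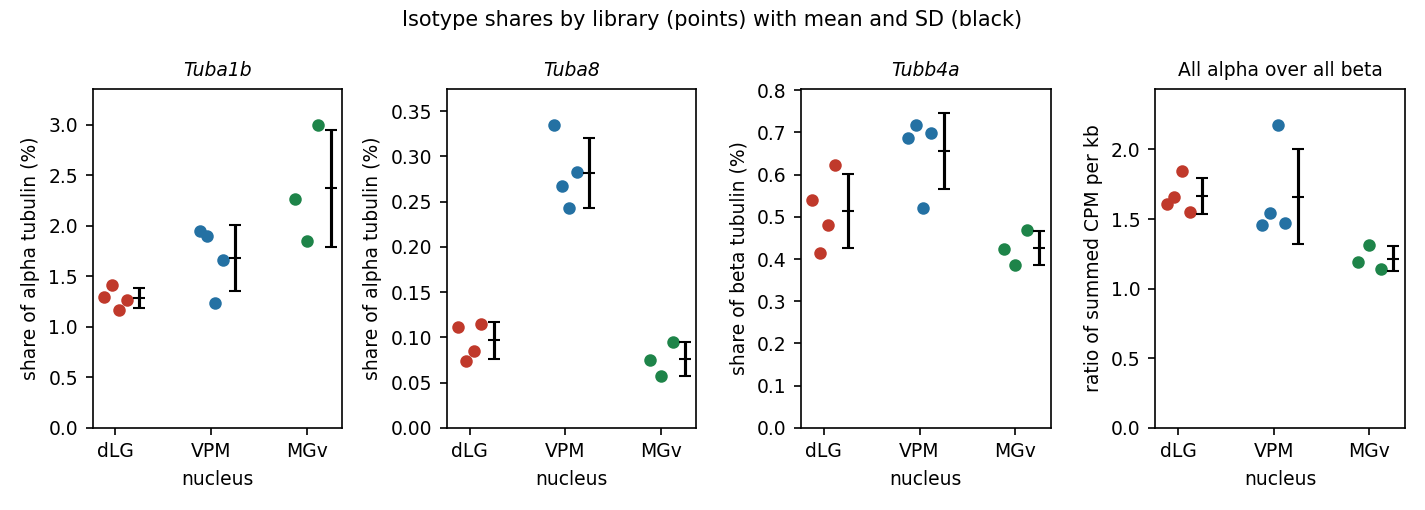
Share of Tuba1b and Tuba8 in the alpha pool and of Tubb4a in the beta pool (y axes, percent, from CPM per kb), and the ratio of summed alpha to summed beta, by nucleus (x axes), with 1 point per library and mean ± SD in black. The VPM points of Tuba8, 0.243% to 0.334%, stand above all others, and the MGv ratios, 1.14 to 1.32, lie below all others.

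Across the 11 libraries, 5 of the 10 isotypes moved together. Among Tuba1b, Tubb2a, Tubb2b, Tubb3 and Tubb5, a set picked after the values were seen, Pearson's r of log2 CPM lay between 0.74 and 0.962 for the 10 pairs, and between 0.601 and 0.973 for deviations from the mean of each nucleus. These are descriptions over n = 11 libraries that share the scaling of each library, and for Tubb2a and Tubb2b also sequence. With these 5 genes, r lay between 0.18 and 0.466 for Tuba1a and between 0.11 and 0.385 for Tuba4a. It lay between 0.221 and 0.522 for Tuba1c and between -0.21 and 0.14 for Tuba8. For deviations from the mean of each nucleus, r was between 0.511 and 0.826 for Tuba1a and between 0.714 and 0.863 for Tuba4a. Within nuclei, then, both moved largely with the set. Tuba1c had r between 0.02 and 0.448 within nuclei, and Tuba8 between 0.283 and 0.511. Tubb4a did not follow the other 4 beta members, with r between -0.045 and 0.189, or between -0.015 and 0.292 within nuclei. For Tuba1a, Tuba1b, Tuba4a, Tubb2a, Tubb2b, Tubb3 and Tubb5 the library with low Hspa8 was the highest in all 3 nuclei, which was so in 1 nucleus for Tubb4a and Tuba1c and in 2 for Tuba8.

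For the 3 members called in the test of any difference, the genes outside the tubulins with the most similar profile over the 11 libraries were found by Pearson's r of log2 CPM. Nearest to Tuba8 were Myot (r = 0.983), which encodes a muscle filament protein, Lmo4 (r = 0.978), a transcriptional cofactor, and Hbb-bh1 (r = 0.978), an embryonic globin. Lmo4 was at 72.5 ± 13.8 CPM in VPM (SD over 4 libraries), 15.0 ± 1.08 in dLG (4 libraries) and 11.1 ± 2.79 in MGv (3 libraries), and the other genes averaged 3.77 and 4.20 CPM in VPM and at most 0.255 CPM elsewhere. Nearest to Tubb4a were Prps2 (r = 0.949), an enzyme of nucleotide synthesis, Rhbdl3 (r = 0.94), a rhomboid-like protein, and Phlda1 (r = 0.94). Prps2 averaged 19.6 CPM in VPM, 9.94 in dLG and 11.5 in MGv. The other genes were low: Rhbdl3 averaged 2.15, 0.0704 and 0.294 CPM in the same order, near or under the floor outside VPM. Phlda1 averaged 2.02, 0.746 and 0.908 CPM. Nearest to Tuba1b were Tmem246 (r = 0.969), Tpgs2 (r = 0.952), a subunit of the tubulin polyglutamylase complex, and Elp3 (r = 0.95), the acetyltransferase subunit of Elongator. Tmem246 averaged 252 CPM in dLG, 314 in VPM and 349 in MGv.

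Of the 10 other tubulin genes, 5 were detected well enough to be tested. Tubb4b, a widely expressed beta tubulin that is also found in cilia, was at 141, 165, 129.9 and 114 CPM in dLG, 188, 171, 221 and 139 CPM in VPM and 206, 182 and 211 CPM in MGv, replicates in order. All MGv libraries were above all dLG libraries, and dLG fell below MGv with a log2 difference of -0.54 ± 0.17 (SE, by edgeR adjusted p = 0.0511). Of its windows 58.7% were found in no other gene, and its call was lost without any 1 of dLG replicates 1, 3 and 4 and MGv replicates 1 and 3 (edgeR adjusted p between 0.106 and 0.148). Tubd1, delta tubulin of the centriole, was lower in dLG (4.38, 1.29, 2.78 and 2.91 CPM) than in VPM (8.53, 10.2, 7.32 and 7.66 CPM) without overlap (log2 fold change -1.58 ± 0.43, edgeR adjusted p = 0.0393). Tube1, epsilon tubulin of the centriole, was higher in dLG than in VPM (0.69 ± 0.22, edgeR adjusted p = 0.0719), and the libraries just overlapped. The call of Tubd1 was lost without VPM replicate 2 (edgeR adjusted p = 0.109), and that of Tube1 without any 1 of dLG replicates 1, 2 and 3 and VPM replicates 1, 2 and 4 (between 0.114 and 0.210), with no count filter and without the low Hspa8 libraries. The gamma tubulins Tubg1 and Tubg2, which seed microtubules, were at 82.1 to 121 and 92.0 to 130 CPM and were not called. Tubb6 had 1 to 11 counts per library, and Tubb1, Tuba3a, Tuba3b and Tubal3 had 0 to 3, at or under the floor.

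The genes that fold tubulin, modify it and seed its assembly were taken as lists. Of the 21 folding genes (the CCT chaperonin, prefoldin and the tubulin cofactors), all were tested and 1 was called in dLG against VPM, lower in dLG, and 0 in the other comparisons by edgeR's test, below the 10.7%, 16.1% and 19.0% of all genes called in the 3 comparisons, in the order above. In dLG against MGv, 0 of the 21 had an unadjusted edgeR p under 0.05 and 0 were called by DESeq2 or by limma voom. In VPM against MGv, 3 had an unadjusted edgeR p under 0.05, and DESeq2 called 3 and limma voom 4. The shares above are those of edgeR. The shares of all genes called by DESeq2 and limma voom are not given here, so their counts have no background beside them. Their median log2 fold change was -0.13 in dLG against VPM, -0.06 in dLG against MGv and 0.04 in VPM against MGv, beside 0.00, 0.02 and 0.02 over all genes. The gene called was Cct4, a CCT subunit, at 341 ± 40.7 CPM in dLG (SD over 4 libraries) and 482 ± 114 in VPM (4 libraries), which is -0.50 ± 0.15 for dLG against VPM on the log2 scale (SE, edgeR adjusted p = 0.0686) with just overlapping libraries. This call was lost without any 1 of dLG replicates 1, 3 and 4 and VPM replicate 2 (edgeR adjusted p between 0.103 and 0.184) and with only the nuclei compared in the fit (0.107). Next in the test of any difference were Vbp1 of prefoldin (edgeR adjusted p = 0.169) and the CCT subunit Cct5 (0.188), neither of which passed.

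Of the 28 modification genes, 22 were tested, and 2, 2 and 3 were called when dLG was set against VPM, dLG against MGv or VPM against MGv. In each comparison this was a smaller share than over all genes tested (10.7%, 16.1% and 19.0%), so the genes below are described singly. Vash2, a carboxypeptidase that removes the final tyrosine of alpha tubulin, was at 259 ± 29.8 CPM in VPM (SD over 4 libraries), 163 ± 24.2 in dLG (4 libraries) and 177 ± 16.7 in MGv (3 libraries). VPM lay above both others without overlap, as for Tuba8 and Tubb4a, with log2 fold changes of -0.67 ± 0.14 for dLG against VPM and 0.55 ± 0.15 for VPM against MGv (SE, edgeR adjusted p = 0.00772 and 0.0265). Of the polyglutamylase that adds glutamate chains to tubulin tails, the subunit Tpgs2 was lowest in dLG, at 163 ± 11.8 CPM, against 217 ± 14.2 in VPM and 246 ± 16.5 in MGv (log2 fold change -0.41 ± 0.11 and -0.59 ± 0.12, edgeR adjusted p = 0.0339 and 0.00391). Ttll1, its catalytic subunit, was highest in MGv, at 156 ± 13.9 CPM, against 105 ± 15.1 in dLG and 115 ± 12.6 in VPM (log2 fold change of dLG against MGv -0.57 ± 0.14 and of VPM against MGv -0.44 ± 0.14, edgeR adjusted p = 0.0175 and 0.0585). Tpgs1, another subunit, singled out after its values were seen, was at 165, 161 and 170 CPM in dLG, VPM and MGv and was not called (edgeR adjusted p = 0.930, 0.906 and 0.782 in the same order of comparisons). The remaining call, singled out after its values were seen, was Ttll12, higher in MGv than in VPM (-0.59 ± 0.14, edgeR adjusted p = 0.0153). Of these calls, that of Vash2 against MGv was lost without MGv replicate 2 (edgeR adjusted p = 0.1002), that of Tpgs2 against VPM without dLG replicate 4 (0.104), with total counts and with no count filter, and that of Ttll1 against VPM without any 1 of MGv replicates 1 and 3 and VPM replicates 1, 2 and 4 (between 0.119 and 0.2002) and with no count filter. The median of the 22 was 0.07, -0.01 and -0.01 on the log2 scale, beside 0.00, 0.02 and 0.02 over all genes.

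Of the 17 nucleation genes (gamma tubulin ring proteins, augmin subunits and their partners), all were tested and 1 was called in each comparison, a smaller share than the 10.7%, 16.1% and 19.0% over all genes. Haus3, a subunit of augmin, which seeds new microtubules on the side of old ones, was lowest in MGv, at 9.5 ± 1.68 CPM (SD over 3 libraries), against 18.6 ± 2.04 in dLG (4 libraries) and 17.9 ± 2.95 in VPM (4 libraries). MGv lay below both without overlap (log2 fold change of dLG against MGv 0.97 ± 0.20 and of VPM against MGv 0.91 ± 0.20, edgeR adjusted p = 0.00602 and 0.00969). Cdk5rap2, a centrosomal activator of gamma tubulin, was higher in dLG (7.35 ± 2.24 CPM) than in VPM (3.09 ± 1.53 CPM), with overlapping libraries (log2 fold change 1.24 ± 0.40, edgeR adjusted p = 0.0821). Leaving out a library ended no call of Haus3, and the call of Cdk5rap2 was lost without any 1 of 7 libraries (dLG replicates 1, 3 and 4, VPM replicates 1, 2 and 3, and MGv replicate 2, edgeR adjusted p between 0.107 and 0.219). Tubgcp2, a gamma tubulin ring protein, did not pass in the test of any difference (edgeR adjusted p = 0.16). The median of the 17 was 0.06, 0.01 and -0.10 on the log2 scale, beside 0.00, 0.02 and 0.02 over all genes.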

How the data were processed

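The deposited tables hold unnormalized counts of reads per gene for 11 libraries of sorted thalamic neurons. The authors made the counts from single-end reads of 50 bases (SMARTer Ultra Low RNA Kit v4): reads were trimmed (Trim Galore 0.6.1, cutadapt 2.3), aligned to GRCm38/mm10 with STAR 2.7.0d and assigned to genes of Ensembl release 95 with featureCounts (Subread 1.6.4). The counting options are not given in the sources used here. Libraries were grouped by their titles. The members, gene lists and tests were chosen with earlier results of these data known.

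Symbols, positions and exon lengths came from GENCODE M21, with records for 54723 of the 54752 identifiers. A quasi-likelihood F test was fitted with edgeR 4.0.16 (R 4.3.3) to all 11 libraries with 3 group means, TMM scaling and the filterByExpr filter. The p-values were adjusted over 15907 genes by the Benjamini-Hochberg procedure, with a threshold of 0.1. The standard error of a log2 fold change is its size divided by the square root of F. Each library is a pool of 4 brains, and p-values measure the spread between libraries. No source used here says whether libraries of different nuclei shared brains, and the main test treats all libraries as independent. Library pairs of a nucleus differed by far more than sampling noise (chi-square per degree of freedom 12.8 to 114.7). A prior count of 2 was added for log2 CPM. The floor of 3 counts covers counting error only, as PCR reads without molecular identifiers are not independent molecules. Uniqueness of 50-base windows was searched over annotated transcripts on both strands, not over the genome. The coding ends of 2 alpha members are not reported here.

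The named genes were the 10 members, 10 other tubulins, the 3 genes with the lowest p in the test of any difference from each of 3 lists, genes called in at least 2 comparisons, and the 3 genes outside the tubulins most correlated with each member called in that test. The alternatives were an adjusted p from DESeq2 1.42.0 or from voom (limma 3.58.1, quality weights per sample), scaling by size factors or total counts, dropping the count filter or asking for 10 counts in each library, a replicate block, an adjusted p under 0.05, only the nuclei compared, the libraries with low Hspa8 as a covariate or left out, and each library left out. The fits were checked on simulated counts.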

Additional observations from a re-analysis of the deposited data

Results flagged for a closer look

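Each of the 30 sets of 4 values (15 tested tubulin genes in dLG and in VPM) was searched for a library far from the other 3 by Dixon's criterion at the 95% level, which flags about 1 in 20 sets by chance, and 2 were found. Tuba1b in VPM replicate 4, at 259 CPM, lay below the other VPM libraries (348 to 353 CPM). Tubg2 in VPM replicate 3, at 121 CPM, lay above the others (92.0 to 96.1 CPM), and that library is one of the 3 with low Hspa8. No other library of the 30 sets was flagged.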

How the results depend on the processing

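Of the 660 values that the alternatives gave for the log2 fold changes of the 10 members in 3 comparisons, 594 kept their direction and their side of the threshold, 44 lost a call, 12 gained one and 10 changed sign. The sign changes all concern differences near 0 that were never called. Tuba4a in dLG against VPM (0.05) turned to -0.0949 without the 3 libraries with low Hspa8 and ran from -0.264 to 0.243 when 1 library was left out, negative without dLG replicates 1 or 2 or VPM replicates 2 or 4. Tubb3 in dLG against VPM turned to 0.00055 with total counts. Tuba1a in dLG against VPM ran from -0.27 to 0.0784, positive only without VPM replicate 3. Tubb4a in dLG against MGv turned to 0.0362 without the low Hspa8 libraries and ran from -0.139 to 0.0414, positive without dLG replicate 3 or MGv replicate 1. Against 3 members called in dLG against VPM, total counts gave 1 and leaving out 1 library gave 1 to 3. For dLG against MGv (3), limma voom gave 5 and an adjusted p under 0.05 gave 1, with 1 to 4 when 1 library was left out. For VPM against MGv (2), the stricter threshold gave 1 and leaving out 1 library 1 to 3. The test of any difference (3) gave 7 with limma voom, 5 with the low Hspa8 libraries as a covariate, 5 without them, and 3 to 5 when 1 library was left out. The share of all genes called under each alternative is not given here. The counts of members under the alternatives therefore cannot be read as above or below a background. The replicate block, which pairs libraries by replicate number, left 3, 1, 2 and 3 members called in these tests, so the count in dLG against MGv fell from 3 to 1 (Tuba1b). Under the block the calls of Tubb4b (dLG against MGv, edgeR adjusted p = 0.104), Tubd1 (0.109), Tube1 and Cdk5rap2 (0.106, all 3 in dLG against VPM) and Ttll1 (VPM against MGv) were lost too. The numbers were not shown to pair libraries: same-numbered libraries of different nuclei correlated in their deviations between -0.203 and 0.483, over 0.1 in 2 of 10 pairs, and 4 of 11 libraries were closest to their own number. Total counts shifted the median log2 fold change of all genes by up to 0.10 (dLG against VPM), and Tuba8 was the member still called in that comparison. The causes were not tested. Depth limits Tuba1c (11 to 24 counts per library) and the tubulins at the floor. Read length limits the split among Tuba1a, Tuba1b and Tuba1c: counting windows in the genome was not run, and annotated transcripts were used.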
